A study of Mus musculus with 24 samples.

Results

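The epidermal growth factor (EGF) receptor ligands Ereg, Areg, Hbegf, Btc, Tgfa and Nrg1 and the ERBB receptors Egfr, Erbb2 and Erbb3 were followed in pancreatic stellate cells (PSC), 9 genes chosen by name out of 53801 genes listed. PSC reside in the pancreas and become fibroblasts when they are activated. Their RNA was sequenced in 24 libraries, 3 for each combination of 2 co-culture models, 2 time points (24 h and 72 h) and 2 arms, PSC cultured with cancer cells or alone (control). PSC of every group were wild-type, came from C57BL/6J mice of 7 to 10 weeks and were isolated from 4 to 10 pooled pancreata, so a replicate is not a single animal. The cancer cells were KPC cells, a line from a mouse tumour model driven by p48-Cre that carries a lox-stop-lox allele of mutated Trp53, and 1 line stands for the tumour in all co-cultures. In standard co-culture (distant paracrine) the well floor held the KPC cells, below an insert membrane with 1 µm pores on which the PSC lay. In inverse co-culture (close paracrine) KPC cells sat on the lower face of that same membrane and were attached before PSC were added, which lengthened the time both cell types spent together. Libraries were made from 450 ng of RNA in the standard model and from 120 ng in the inverse model, so model and RNA input cannot be told apart.

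EGF receptor ligands are made as membrane-bound precursors that metalloproteinases such as ADAM17 cut free, and they then bind receptors on the same or on neighbouring cells. EGFR binds EGF, amphiregulin, TGF-alpha, HB-EGF, betacellulin and epiregulin, and ERBB3 and ERBB4 bind neuregulins, while ERBB2 binds no known ligand and acts as a partner of the other receptors. Bound receptors pair, phosphorylate each other and feed the relay of kinases that ends in MEK and ERK, and in the pancreas this pathway is known for its part in cancer and in the activation of fibroblasts.

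Of the 9 genes, only Ereg rose in co-culture in the comparisons of 3 libraries with 3, and it did so at both time points of inverse co-culture. Egfr, by far the most abundant member, was higher in co-culture by a smaller amount that did not pass the test in any of these comparisons. Areg, Btc and Erbb3 missed the filter on low levels and were not called without it, and Erbb2 differed by 0.11 or less on the log2 scale. Levels are given as FPKM, fragments per kilobase of transcript scaled to the fragments of the library, and differences as log2 fold changes of FPKM + 0.5, which understates changes of low genes. Tests are limma's moderated test, two-sided, with Benjamini-Hochberg adjustment over all genes tested, and a gene was called at an adjusted p under 0.05. An exact permutation test of 3 against 3 cannot give a p under 0.1, which a split without overlap reaches.

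Between 15932737 and 24798761 fragments were counted per library, and between 12277 and 13307 genes had an FPKM above 1. The 10 markers of PSC and fibroblasts were above an FPKM of 1 in all 24 libraries, with Pdgfrb at 126 to 194 and Des at 26.2 to 87.8. Among the 12 epithelial markers, which KPC cells could bring in, Grhl2 was at 0 in 24 libraries and Epcam in 21. Others were present, with Cdh3 above an FPKM of 1 in 22 libraries and Krt19 in 7, and Krt8 and Krt18 reached 15.2 and 11.7 FPKM. The summed FPKM of the 12 markers was between 1.06 and 6.28 in 21 libraries. It was 44.9 in inverse co-culture replicate 2 at 24 h, and 8.46 and 11.3 in inverse co-culture replicate 3 at 24 h and 72 h. Replicate 1 of the standard model stood apart in both arms, with a summed adipocyte marker level of 220 to 554, against 1133 to 1991 in replicates 2 and 3. Summed macrophage markers were 431 to 1439 FPKM in replicate 2 of the standard model and 40.9 to 192 FPKM in its replicates 1 and 3. In bulk samples, fewer cells of a type and less RNA per cell cannot be told apart.

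The levels of the members span receptors and ligands of very different abundance. Egfr ranged from 35.2 to 115 FPKM over the 24 libraries with a median of 85.8, Erbb2 from 8.97 to 14.8 with a median of 11.6, and Erbb3 from 0 to 0.123 FPKM. Among the ligands the medians were 3.57 FPKM for Ereg, 2.56 for Nrg1, 2.32 for Hbegf, 1.12 for Tgfa, 0.509 for Btc and 0 for Areg. The length behind the FPKM of Egfr is 2955 bases, the mean of its annotated transcripts. Scaled to its longest transcript of 10208 bases the median of Egfr would be 24.8 FPKM, so the distance to the ligands depends on which transcripts the cells use.

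**Figure D1:**
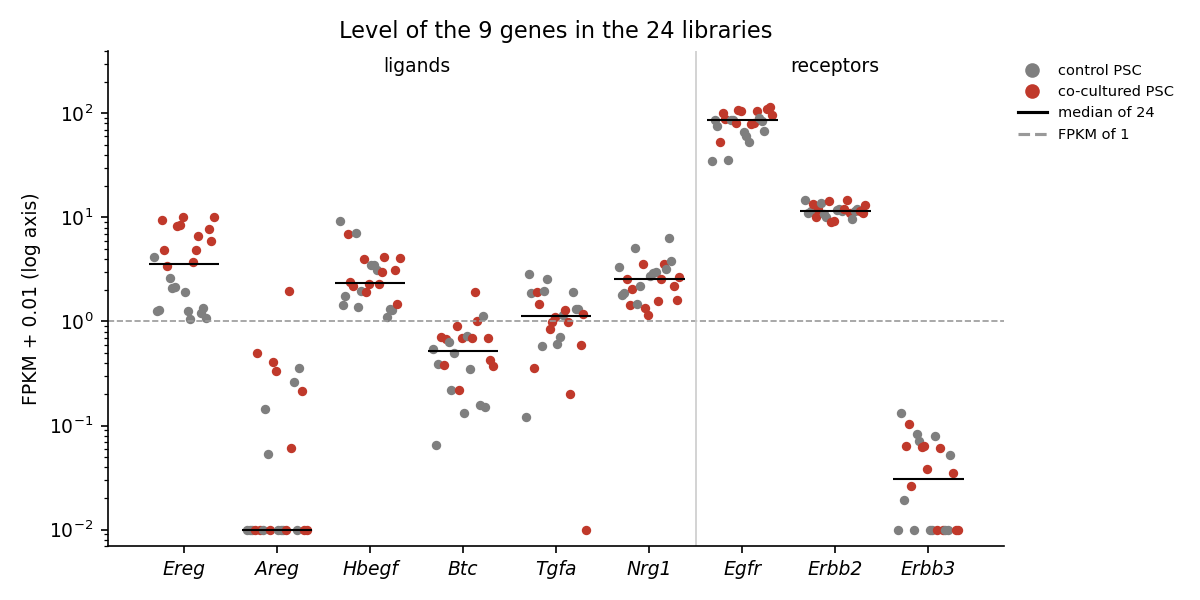
Level of each of the 9 genes in the 24 libraries (FPKM + 0.01, log axis), with control PSC in grey, co-cultured PSC in red and the median of the 24 libraries as a black line. Egfr and Erbb2 lie above all ligands in median, and 14 libraries of Areg and 10 of Erbb3 are at 0.

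Ereg lies on chromosome 5 from 91074622 to 91093646 (GRCm38, plus strand), in a row with other ligand genes of the family. Counted from its start, Epgn, the gene of epigen, starts 47.2 kb before it, Areg 65.0 kb after it and Btc 328 kb after it. Egfr lies on chromosome 11 from 16752203 to 16918158, also on the plus strand. RefSeq promoter sequences (GRCm38.p6) were given for 5 of the 9 genes, and those of Areg and Egfr are shown, as the ligand with a median level of 0 and the receptor with the highest level. Each line holds the 250 bases before the start on the plus strand, chr5:91139349-91139598 for Areg and chr11:16751953-16752202 for Egfr, with the motifs named next in capitals.
Areg: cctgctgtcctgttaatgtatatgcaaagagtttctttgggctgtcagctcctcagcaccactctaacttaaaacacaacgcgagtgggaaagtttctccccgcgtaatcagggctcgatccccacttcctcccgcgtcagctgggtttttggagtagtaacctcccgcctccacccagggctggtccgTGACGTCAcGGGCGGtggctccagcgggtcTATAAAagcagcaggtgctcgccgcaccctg
Egfr: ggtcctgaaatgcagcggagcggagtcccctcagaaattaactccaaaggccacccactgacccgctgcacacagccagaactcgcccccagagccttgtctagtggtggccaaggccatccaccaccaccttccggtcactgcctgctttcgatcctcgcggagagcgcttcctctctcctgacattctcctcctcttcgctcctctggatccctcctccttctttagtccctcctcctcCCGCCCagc
Motifs searched were the cAMP response element TGACGTCA, the AP-1 site TGANTCA, the GC box GGGCGG (each on both strands) and the TATA box TATAAA on the gene's strand. The Areg window held a cAMP response element from 61 bases before the start, a GC box from 52 bases and a TATA box from 31 bases before it, and the Egfr window held only a GC box, read on the other strand, from 9 bases before the start. Of 32851 promoter windows of this length, 1.55% held the cAMP response element, 7.59% the TATA box, 32.7% the GC box and 6.75% the AP-1 site. The Areg and Egfr windows held 15 and 11 CpG dinucleotides, against a median of 6 over all windows. A match describes letters in a window and not a bound site.

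Epiregulin, encoded by Ereg, is a ligand of EGFR and ERBB4 that is known from inflammation and tissue repair. In control PSC of the inverse model Ereg was low, with 1.92, 1.25 and 1.04 FPKM at 24 h and 1.19, 1.34 and 1.08 FPKM at 72 h in replicates 1, 2 and 3. In inverse co-culture it was 3.71, 4.89 and 6.63 FPKM at 24 h and 7.69, 5.94 and 10.2 FPKM at 72 h. All co-culture libraries of this model lay above all of its controls at both time points, as for 7.38% of genes at 24 h and 9.53% at 72 h. On the log2 scale Ereg rose by 1.54 at 24 h (SE 0.27, adjusted p = 0.0260, limma), a fold of 2.92. At 72 h it rose by 2.28 (SE 0.23, adjusted p = 0.00385, limma), a fold of 4.86. Of the 5 members tested at 24 h and the 6 tested at 72 h, Ereg was the only call, against 2.47% of all genes tested called at 24 h (1.08% higher and 1.39% lower) and 12.8% at 72 h (3.27% higher and 9.57% lower). The call at 72 h was made in each of the 15 alternative fits that tested Ereg, with adjusted p between 0.00154 and 0.0297. The call at 24 h was made in 7 of 15 such fits, and it was lost without co-culture replicate 2 (adjusted p = 0.0922), without control replicate 1 (0.0559), 2 (0.102) or 3 (0.113), in a fit over all 24 libraries (0.0960), with the replicate block (0.102), without the intensity trend and without the filter, while the log2 difference stayed between 1.35 and 1.73 when any 1 of the 6 libraries was left out.

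Summed epithelial markers are given beside Ereg for each inverse co-culture library. At 24 h they were 2.94, 44.9 and 8.46 FPKM in replicates 1, 2 and 3, beside Ereg at 3.71, 4.89 and 6.63 FPKM, so the lowest library was the lowest in both and the highest differed. At 72 h they were 4.61, 2.16 and 11.3 FPKM, beside Ereg at 7.69, 5.94 and 10.2 FPKM, the same order in both. Replicate 2 at 72 h lay within the 1.06 to 2.55 FPKM of epithelial markers in its controls, and its Ereg level was above the highest control at 1.34 FPKM. Summed adipocyte markers were 399 to 926 FPKM in inverse co-culture at 72 h and 1636 to 2425 FPKM in its controls. Summed macrophage markers were 57.9 to 86.0 FPKM and 134 to 267 FPKM, and both sums were without overlap. Of single genes, 28.8% likewise had every co-culture library below every control in this comparison. The part of these cell types in the result was not tested.

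Ereg of the standard model was 4.18, 1.24 and 1.27 FPKM in controls at 24 h and 9.45, 4.80 and 3.42 FPKM in co-culture. At 72 h it was 2.62, 2.09 and 2.11 FPKM in controls and 8.19, 8.43 and 10.0 FPKM in co-culture. The groups overlapped at 24 h, where control replicate 1 lay above co-culture replicate 3, and did not overlap at 72 h, where co-cultures lay above controls, as for 3.36% of genes. Differences of 1.28 on the log2 scale at 24 h (SE 0.52, adjusted p = 1, limma) and 1.76 at 72 h (SE 0.18, adjusted p = 0.362, limma) did not pass the test. No gene was called in either comparison, 0% of 12859 genes at 24 h and 0% of 12863 at 72 h. An unadjusted p under 0.05 was reached by 371 genes at 24 h and 800 at 72 h, counts that do not by themselves show an effect. Libraries of the standard model with the same replicate number deviated together, and each of the 6 same-numbered pairs was higher in co-culture for Ereg, as it was for 5.10% of all genes in that model. Blocking on replicate number, Ereg was called at 24 h (1.28, SE 0.19, adjusted p = 0.0362, limma), where 1.22% of genes were called (0.661% higher and 0.56% lower). At 72 h it was not called with the block (1.76, SE 0.19, adjusted p = 0.150, limma), where 1 gene was called higher, 0.00777% of those tested.

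Averaged over both models and both time points, Ereg rose by 1.72 on the log2 scale (SE 0.17, adjusted p = 6.79e-06, limma), a fold of 3.29, in a fit in which 14.9% of 14452 genes were called 4.02% being called higher and 10.9% lower. Leaving out any 1 library kept it between 1.62 and 1.83. Over all libraries Ereg ranged from 1.04 to 4.18 FPKM in 12 controls and from 3.42 to 10.2 FPKM in 12 co-cultures, and only standard control replicate 1 at 24 h reached the range of the co-cultures. In the order of group means all 4 control groups stood below all 4 co-culture groups, from 1.202 FPKM in inverse controls at 72 h to 8.88 FPKM in standard co-culture at 72 h. Neighbours in that order overlapped, except the highest control group (2.27 FPKM) and the lowest co-culture group (5.08 FPKM). These levels rest on 73 to 783 fragments per library. Tests of the difference between models did not pass, with inverse minus standard at 0.26 (SE 0.49, adjusted p = 1, limma) at 24 h and 0.52 (SE 0.49, adjusted p = 0.997, limma) at 72 h. Nor did those between time points, with 72 h minus 24 h at 0.74 (SE 0.36, adjusted p = 0.493, limma) in the inverse and 0.48 (SE 0.58, adjusted p = 1, limma) in the standard model, and no gene passed any of these 4 tests. A p above the threshold does not show that these effects are alike.

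**Figure D2:**
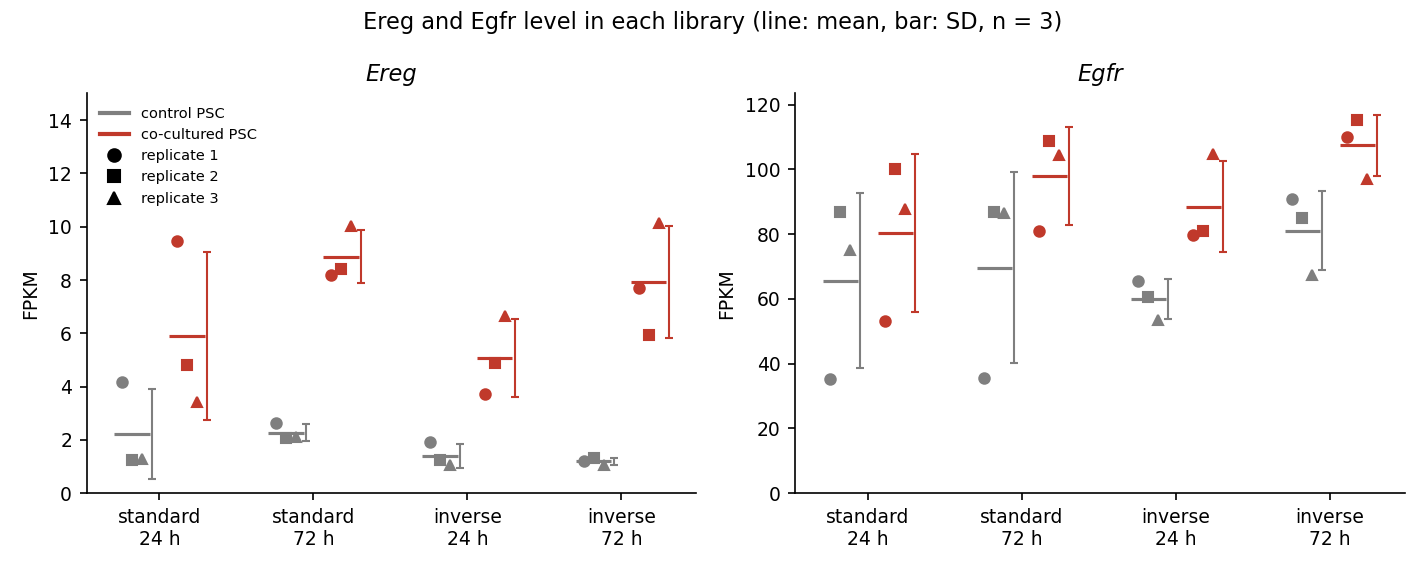
Ereg and Egfr level (FPKM) in each library by model and time point, with control PSC in grey, co-cultured PSC in red, a symbol per replicate number, lines for the mean and bars for the SD of 3. Co-culture libraries of Ereg sit at 3.42 to 10.2 FPKM, and replicate 1 of the standard controls has the lowest Egfr at 35.2 and 35.6 FPKM.

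The share of Ereg in the summed FPKM of the 6 ligands was 11.7% to 29.0% in controls and 32.1% to 64.4% in co-cultures, with no overlap between the arms. The sum includes Ereg, so a rise of Ereg alone raises its own share and lowers that of every other ligand. For Nrg1 the share was 41.1% to 55.7% in inverse controls at 72 h and 14.99% to 15.5% in inverse co-culture at 72 h. In the inverse model at 24 h it was 30.71% to 34.61% in controls and 16.37% to 22.71% in co-culture. In the standard model the arms overlapped at both time points, with 20.15% to 32.03% and 7.414% to 20.53% at 72 h. The level of Nrg1 was not called in any of these comparisons. These shares describe FPKM, in which the transcript length of each gene counts.

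Heparin-binding EGF-like growth factor, encoded by Hbegf on chromosome 18, is a ligand of EGFR and ERBB4. Hbegf was 3.52, 3.48 and 3.08 FPKM in inverse controls at 24 h and 1.09, 1.29 and 1.29 FPKM at 72 h. It fell by 1.16 on the log2 scale between the time points (SE 0.20, adjusted p = 0.00659, limma), in a comparison in which 19.2% of genes were called, 10.2% higher and 9.05% lower. Hbegf was the only member called over time in controls, and a fit over all 24 libraries ended this call (adjusted p = 0.288). In inverse co-culture it was 2.27, 2.98 and 4.19 FPKM at 24 h and 3.10, 1.45 and 4.06 FPKM at 72 h. The difference from control was -0.11 (SE 0.23) at 24 h and 0.88 at 72 h (SE 0.34, adjusted p = 0.122, limma), where co-cultures lay above controls without overlap, as they did for 9.53% of genes. Of 15 alternative fits, 1 called Hbegf at 72 h, the fit without co-culture replicate 2 (1.23, adjusted p = 0.0320, limma). That library held the lowest Hbegf of its group. Adjusted p over these fits reached 0.345 (limma). The difference between time points, 1.00 (SE 0.42), did not pass the test (adjusted p = 0.421, limma). Replicate 1 of the standard model held the highest Hbegf in every group, 9.19 and 7.02 FPKM in controls and 6.85 and 4.002 FPKM in co-culture, against 1.38 to 2.36 FPKM in replicates 2 and 3.

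Neuregulin 1, encoded by Nrg1, is a ligand of ERBB3 and ERBB4. Nrg1 was 3.22, 6.35 and 3.81 FPKM in inverse controls at 72 h and 2.20, 1.58 and 2.66 FPKM in co-culture, so all co-cultures lay below all controls, as for 28.8% of genes. The log2 difference of -0.88 (SE 0.29, adjusted p = 0.0838, limma) did not pass the test. The other differences were -0.15 (24 h) and -0.41 (72 h) for standard co-culture and -0.19 for inverse co-culture at 24 h, with overlap between the groups. On average over the 4 comparisons it was -0.41 (SE 0.19, adjusted p = 0.168, limma).

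Tgfa encodes TGF-alpha, a ligand of EGFR. It was 1.93, 1.296 and 1.32 FPKM in inverse controls at 72 h and 0.582, 1.16 and 0 FPKM in co-culture, a log2 difference of -1.05 (SE 0.47, adjusted p = 0.173, limma) that did not pass the test. In the inverse model at 24 h too few libraries were above an FPKM of 1 for a test, with 0.604 to 1.14 FPKM in controls and 0.189 to 1.28 FPKM in co-culture. In replicate 1 of the standard model Tgfa was at 0.111 to 0.828 FPKM, and in replicates 2 and 3 at 0.980 to 2.85 FPKM.

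**Figure D3:**
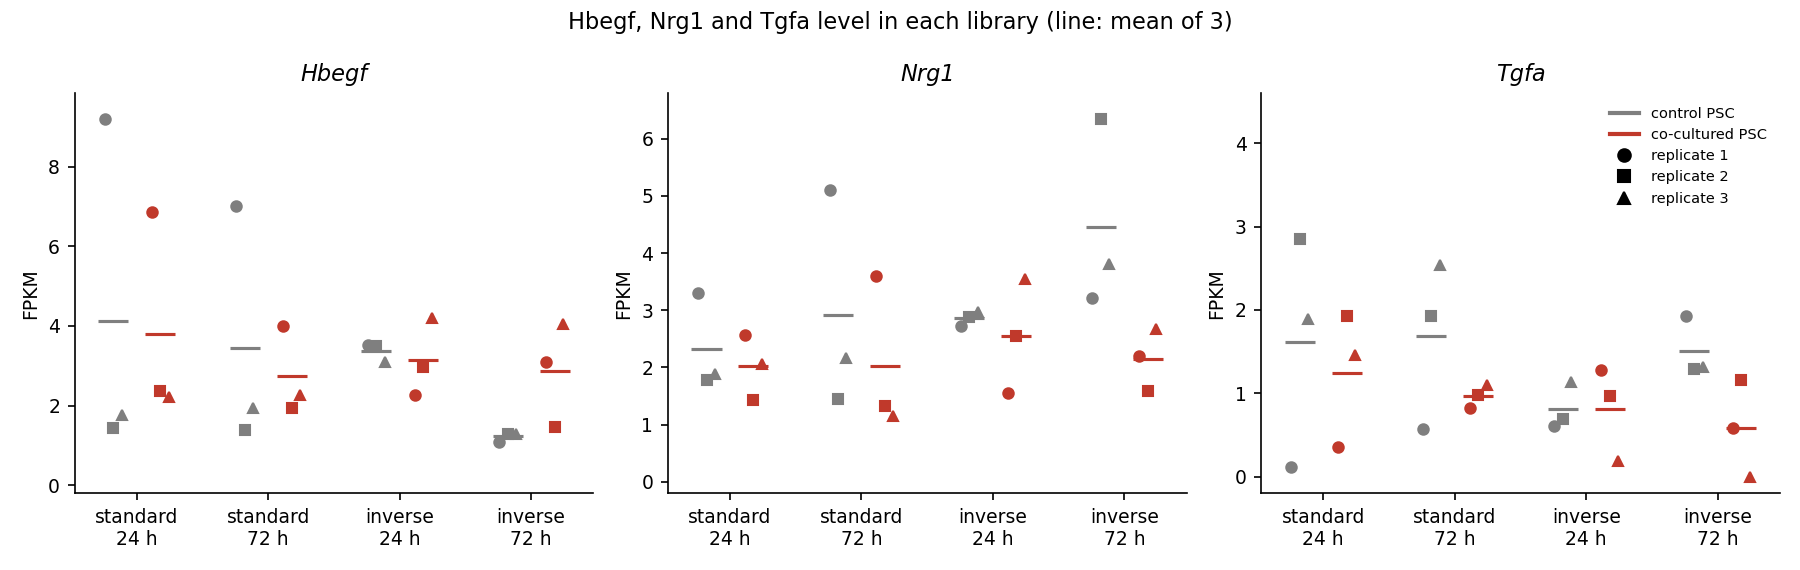
Hbegf, Nrg1 and Tgfa level (FPKM) in each library by model and time point, with control PSC in grey, co-cultured PSC in red, a symbol per replicate number and lines for the mean of 3. Inverse controls at 72 h have the lowest Hbegf (1.09 to 1.29 FPKM) and the highest mean of Nrg1.

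Areg and Btc, the genes of amphiregulin and betacellulin and neighbours of Ereg, stayed near the limit of detection. Areg was at 0 in 14 of 24 libraries and had at most 10 fragments in any control. Its highest level was 1.94 FPKM, from 54 fragments, in inverse co-culture replicate 2 at 24 h, and the next was 0.493 FPKM, from 14 fragments, in standard co-culture replicate 2 at 24 h. Btc was above 0 in all libraries, from 2 to 91 fragments, and was also highest in inverse co-culture replicate 2 at 24 h, at 1.92 FPKM. That library had the highest summed epithelial marker level, 44.9 FPKM, and whether cancer cell RNA is part of its Areg and Btc was not tested. Both genes missed the filter, an FPKM above 1 in at least 3 libraries, in every comparison. Without the filter they were tested and not called, with log2 differences in the inverse model at 24 h of 0.81 for Areg (adjusted p = 0.743, limma) and 0.92 for Btc (adjusted p = 0.481, limma). Where a library has 0 fragments, a count of 0 allows up to 3, by counting error alone.

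Of the 14 protein-coding genes within 500 kb of the start of Ereg, itself included, 4 had an FPKM above 1 in 24 libraries, namely Ereg, Cxcl1, Mthfd2l and Parm1. Cxcl1, a chemokine gene, had a median of 37.7 FPKM. In the inverse model 6 of the 14 were tested at 24 h and 7 at 72 h. Beside Ereg, the chemokine gene Cxcl5 rose at 24 h by 2.40 on the log2 scale (SE 0.44, adjusted p = 0.0308, limma) and Parm1 fell by 0.62 at 72 h (SE 0.15, adjusted p = 0.0360, limma). Both were chosen after their values were seen.

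Among the receptors, Egfr was 65.6, 60.6 and 53.3 FPKM in inverse controls at 24 h and 79.6, 81.0 and 105 FPKM in co-culture. At 72 h it was 90.8, 85.0 and 67.3 FPKM in inverse controls and 110, 115 and 96.9 FPKM in co-culture. The groups did not overlap at either time point, as held for 7.38% of genes at 24 h and 9.53% at 72 h in the same direction. The log2 differences, 0.55 at 24 h (SE 0.14, adjusted p = 0.0824, limma) and 0.41 at 72 h (SE 0.14, adjusted p = 0.0817, limma), did not pass the test. The median log2 difference of all genes was -0.16 in the inverse model at 72 h. Scaling by the median of gene ratios raised that of Egfr to 0.57 and brought it past the threshold (adjusted p = 0.0429, limma). This was the only call of Egfr at 72 h among 16 alternative fits, in which adjusted p reached 0.456 (limma).

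Standard controls had 35.2, 86.8 and 74.96 FPKM of Egfr at 24 h, against 53.1, 100.1 and 87.9 FPKM in co-culture. At 72 h they had 35.6, 86.7 and 86.6 FPKM, against 80.8, 109 and 104 FPKM in co-culture. The groups overlapped through replicate 1, and each of the 6 same-numbered pairs was higher in co-culture, as for 5.10% of all genes in that model. The differences of 0.34 (SE 0.40) at 24 h and 0.59 (SE 0.36) at 72 h did not pass the test, and neither did they when the replicate number was blocked (adjusted p of 0.177 and 0.427, limma). Averaged over models and time points the difference was 0.47 (SE 0.16, adjusted p = 0.0541, limma). With a block on the replicate number in the standard model alone, chosen after the data were seen, the average was called (SE 0.08, adjusted p = 3.28e-04, limma), as was Nrg1 lower (-0.41, adjusted p = 0.0312, limma), where 27.3% of genes were called, 7.33% higher and 19.9% lower.

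Erbb2, the partner receptor without a known ligand, was not called in any comparison. It ranged from 9.69 to 14.7 FPKM in 12 controls and from 8.97 to 14.8 FPKM in 12 co-cultures, and its average log2 difference was 0.00 (SE 0.09). Erbb3, a receptor of neuregulins with a weak kinase, had 0 to 13 fragments per library. Of 6 further members of the family, Egf, Epgn, Nrg2, Nrg3 and the receptor gene Erbb4 never reached an FPKM of 1, and Erbb4 was at 0 in 23 of 24 libraries. Nrg4 reached 2.88 FPKM and was not called where it was tested.

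**Figure D4:**
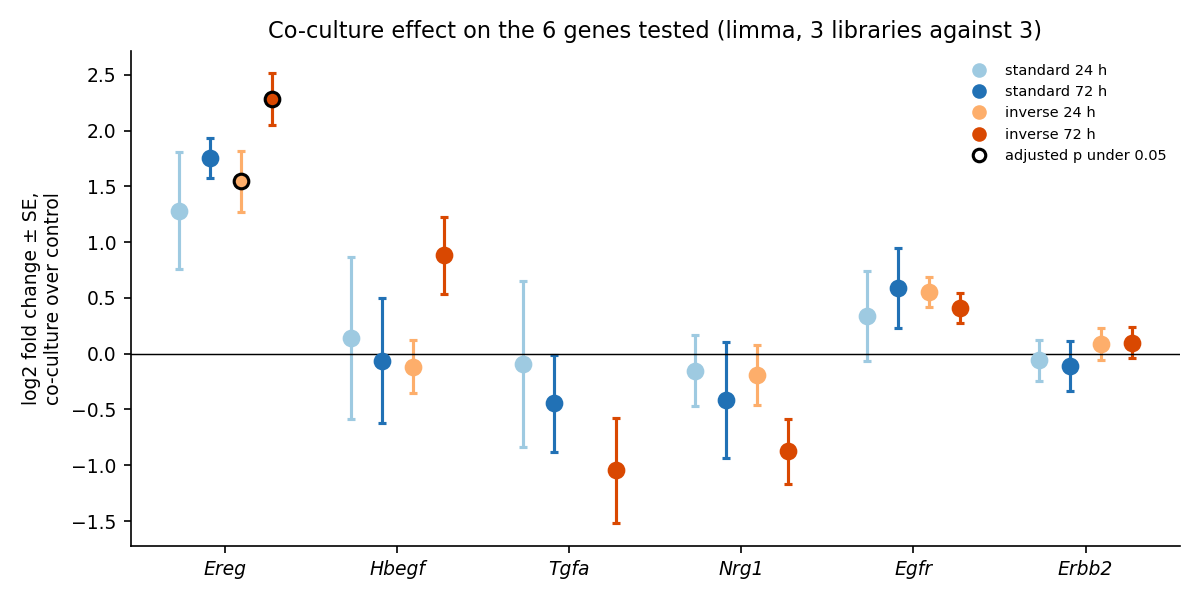
Log2 fold change ± SE of the 6 tested members for co-culture over control in each model at each time point, with black rings at adjusted p under 0.05 (limma). Ereg is above 0 in all 4 comparisons and ringed in the inverse model, and Erbb2 lies between -0.11 and 0.10.

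Genes of the pathway around these members were tested alongside, in lists chosen with earlier results of these data known. Counts of called list genes are therefore a description and no independent test. The list of ERK output genes held 17 genes that rise with ERK activity in many cells. In the inverse model at 72 h, 9 of 17 rose and 0 fell, with a median log2 difference of 0.69 against -0.16 for all genes, and 3.27% of all genes were called higher. The 9 were Dusp6, Spry2 and Spred2, which encode feedback inhibitors, the transcription factor genes Etv4, Etv5, Fosl1 and Myc, and Ier3 and Phlda1. Fosl1 rose by 1.48 (SE 0.18, adjusted p = 0.00512, limma) and Dusp6 by 1.15 (SE 0.20, adjusted p = 0.0138, limma), both picked after their values were seen. At 24 h 1 of 16 rose, where 1.08% of all genes were called higher, with a list median of 0.42 against -0.06. This was Dusp5, a phosphatase gene, which rose by 1.14 (SE 0.17, adjusted p = 0.0159, limma). For the standard model 0 of 16 and 0 of 17 were called at 24 h and 72 h, where 4 and 2 had an unadjusted p under 0.05, with medians of 0.38 against -0.01 and 0.37 against -0.09. With the replicate block 2 of 16 rose at 24 h, Dusp5 and Fosl1, where 0.661% of all genes were called higher. Within the list, Ccnd1 was below 0 in all 4 comparisons and Spry1 and Spry4 were below 0 in 3 of 4, none of them called, at -0.55, 0.39 and -0.53 in the inverse model at 72 h.

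**Figure D5:**
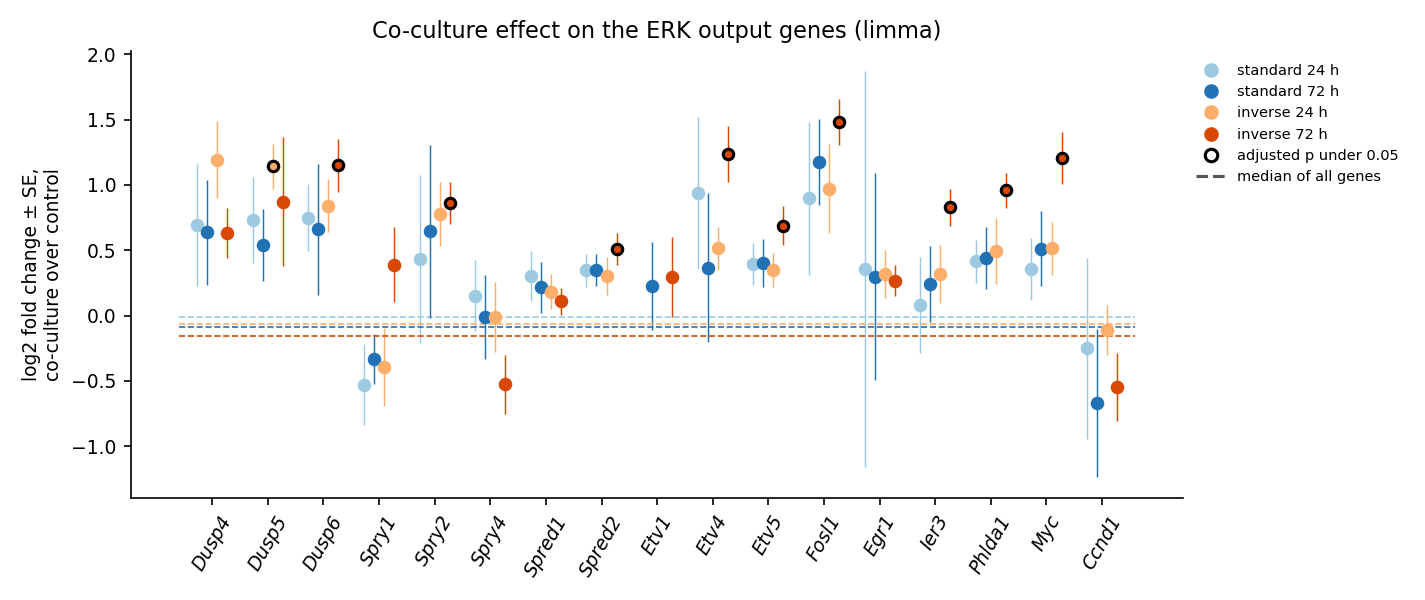
Log2 fold change ± SE of the ERK output genes for co-culture over control in each model at each time point, with black rings at adjusted p under 0.05 (limma) and dashed lines at the median of all genes. In the inverse model at 72 h 15 of 17 genes lie above 0 and 9 are ringed.

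Of 15 genes for receptor inhibitors and turnover, 1 rose in the inverse model at 24 h and 3 at 72 h, and 0 fell, where 1.08% and 3.27% of all genes were called higher. The list medians were -0.05 and -0.08, against -0.06 and -0.16 for all genes. Socs5, which encodes a suppressor of cytokine signalling that also binds EGFR, rose at both time points. It was 17.9 to 22.6 FPKM in inverse controls at 24 h and 33.3 to 45.1 FPKM in co-culture (0.85, SE 0.15, adjusted p = 0.0260, limma), and 19.5 to 22.05 FPKM and 42.2 to 50.5 FPKM at 72 h (1.10, SE 0.11, adjusted p = 0.00385, limma). Its differences of 0.70 and 0.92 in the standard model did not pass the test. At 72 h Errfi1, an inhibitor of EGFR, rose by 1.72 (SE 0.28, adjusted p = 0.0107, limma) and Ptprj, a receptor phosphatase gene, by 0.95 (SE 0.13, adjusted p = 0.00723, limma), both named after their values were seen.

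Of the genes for receptor adaptors and signal relay, 0 of 24 rose and 1 fell in the inverse model at 24 h, and 2 rose and 3 fell at 72 h. Of all genes 1.39% were called lower at 24 h, and 3.27% higher and 9.57% lower at 72 h, and the list medians were -0.12 and -0.10, against -0.06 and -0.16 for all genes. Pik3r1, the gene of a regulatory subunit of PI3-kinase, fell at both time points. Its level was 65.5 to 73.9 FPKM in inverse controls at 24 h and 36.3 to 47.5 FPKM in co-culture (-0.70, SE 0.12, adjusted p = 0.0266, limma), and 91.0 to 112 FPKM and 32.3 to 44.6 FPKM at 72 h (-1.38, SE 0.14, adjusted p = 0.00385, limma). Further calls at 72 h included Eps8 and Map2k1, which rose, and Araf, which fell, named after their values were seen. Of 8 genes for ligand shedding and trafficking, 0 were called at 24 h and 2 fell at 72 h, Adam17 by 0.82 (SE 0.13, adjusted p = 0.00936, limma) and Adam12 by 0.80 (SE 0.19, adjusted p = 0.0364, limma), where 9.57% of all genes were called lower and the list median was -0.14, against -0.16 for all genes. ADAM17 is the main sheddase of epiregulin, and both genes were named after their values were seen. No gene of these 3 lists was called in the standard model without the block. With it, Errfi1 rose (1.06, SE 0.14, adjusted p = 0.0296, limma) and Timp3, the gene of an inhibitor of metalloproteinases, fell (-0.83, SE 0.11, adjusted p = 0.0274, limma) at 24 h. In that fit 0.661% of all genes were called higher and 0.56% lower.

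The 24 libraries share groups, and same-numbered ones of the standard model deviated together. Across them, the genes with a pattern most like a member were sought among 14452 genes by Pearson's r of log2 levels, as a description. For Ereg these were Fosl1 (r = 0.90), Trib2 (r = 0.90) and Smim3 (r = 0.89), for Egfr Medag, A2m and Osmr (each r = 0.96), and for Hbegf Tnfrsf12a (r = 0.96), Fhdc1 (r = 0.94) and Tubb6 (r = 0.94). For Areg Krt18, a keratin gene of the epithelial list, came first (r = 0.71), then Ear1 (r = 0.67) and Tyw1 (r = 0.66). Areg was at 0 in 14 of 24 libraries and above an FPKM of 1 in only 1, and Krt18 was at 0 in 12. The r values of Areg therefore rest on few libraries. Between members, Hbegf and Tgfa had r = -0.79 and Hbegf and Egfr r = -0.65, in which replicate 1 of the standard model takes part, and Ereg and Egfr had r = 0.32.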

How the data were processed

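PSC RNA of 24 libraries was sequenced by a service provider, and per the labels and the study's methods reads were aligned with HISAT2 2.0.5 to GRCm38 and fragments counted with featureCounts 1.5.0-p3, whose default ignores strand. The authors deposited FPKM values, scaled to each library's total only. Low FPKM times the whole part of the mean transcript length (GENCODE M21, 53706 genes matched) were whole fragments, within 0.02, for 95.05% to 96.03% of values under 50 fragments, which gave the counted fragments per library. For Hbegf a length of 2373 bases found by search was used, in place of a mean of 1903 bases. The 9 genes and all lists were chosen with earlier results of these data known.

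Values were compared as log2(FPKM + 0.5) with limma 3.58.1 (R 4.3.3) with an intensity trend, for genes in which at least 3 libraries of the fit exceeded an FPKM of 1. The study's methods give 3 biological replicates a group. Each co-culture was compared with its control over 6 libraries, differences between models and the average over 24, and between time points over 12. Same-numbered libraries deviated together in the standard model (correlations of 0.82, 0.76 and 0.55 at 24 h and 0.60, 0.48 and 0.48 at 72 h) and not in the inverse model (between -0.17 and 0.10), so blocked values stand beside results of the standard model. All 9 members are named. From the lists, genes called in at least 2 of the 4 co-culture comparisons are named, at most 4 a list by summed absolute log2 difference, and others are marked as chosen after their values were seen. The 3 genes most like Ereg, Areg, Hbegf and Egfr are named by Pearson's r. The fit was tested on simulated data. Alternatives were other pseudocounts (1, 0.1), no filter, a mean FPKM above 5, median-ratio scaling, quantile normalization, no trend, a replicate block, voom on recovered fragments, all 24 libraries, and each library left out. A block in the standard model alone and leaving out its replicates 1 or 2 were added after the data were seen. Some items are not reported here.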

Additional observations from a re-analysis of the deposited data

How the results depend on the processing

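Of 254 alternative counts of called members, 225 stayed within 1.5 times the main count, and no called difference of a member reversed. In the main fits no gene at all was called in comparisons within the standard model, nor for differences between models or between time points. The main count of members was therefore 0 there and had little room to change, so the 225 do not measure robustness. In the standard model the count went from 0 to 1 (Ereg) with the replicate block at 24 h and with all 24 libraries at 72 h. In the inverse model at 24 h it went from 1 to 0 without the filter, with a mean FPKM above 5 (which leaves Ereg out), without the intensity trend, with the replicate block and with all 24 libraries, and to 2 with voom, and it was 0 to 1 when a library was left out. At 72 h it went from 1 to 0 with a mean FPKM above 5 (Ereg left out) and to 2 with median-ratio scaling, and it was 1 to 2 when a library was left out. For inverse controls over time it went from 1 to 2 with quantile normalization, the replicate block and voom and to 0 with all 24 libraries, and it was 1 to 2 when a library was left out. For the average over models and time points it went from 1 to 2 with median-ratio scaling, quantile normalization and the replicate block, to 3 with the block in the standard model alone, and to 2 without standard replicate 1, and it was 1 to 2 when a library was left out. Where no cause is named, the cause was not tested. The replicate block lowered the calls over all genes in the inverse model, from 317 to 88 (24 h) and from 1678 to 902 (72 h), where the samples share only a number, and not every inverse library correlated best with its own number. In the standard model it raised them from 0 to 157 (24 h) and from 0 to 1 (72 h). Voom called 2 members in the inverse model at 24 h, Ereg and Egfr. Areg, Btc and Erbb3, with few fragments, were tested only without the filter and were not called.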
